A study of Mus musculus with 6 samples.

Results

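Plasmacytoid dendritic cells (pDCs) of mouse colon tumours were described from single-cell RNA sequencing, in tumours labelled SOX17KO and tumours labelled Control. The members were selected by their measured counts of unique molecular identifiers (UMIs, tags that mark each captured RNA molecule). A cell was taken as a pDC when it had at least 1 UMI of Siglech and at least 3 UMIs summed over Siglech, Ccr9, Klk1 and Cox6a2. It also had to lack UMIs of C1qa, C1qb, C1qc and Ms4a1 and to have fewer than 2 UMIs of Cd3d and Cd3e. This gate took 307 of the 33862 cells that had at least 200 genes and at most 10% mitochondrial UMIs. The levels of those genes, and the numbers of pDCs they give, are therefore a description of the gate and not a finding about it.

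Plasmacytoid dendritic cells are a lineage of dendritic cells that sense viral and self nucleic acids through endosomal Toll-like receptors and can release large amounts of type I interferon. Their identity depends on the transcription factor TCF4 (also called E2-2), which is opposed by ID2, and they share parts of their gene expression with B cells. In tumours they have been linked both to antitumour interferon and to tolerance, and they often express little of the machinery for antigen presentation when not activated.

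The sort kept live immune cells, that is cells without 7-AAD staining, with CD45 on their surface and without EpCAM, and 10x Genomics 3' v3 libraries were made from them. The 6 libraries form 3 pairs of SOX17KO and Control. A pair is dated 1 week, another 2 weeks, and the other has no date and is called untimed here. The series description states that the tumours of 5 mice were pooled per condition. By its name SOX17KO lacks SOX17, a transcription factor, while the allele, the cells that carry it, the strain and the age of either genotype are not given in the sources used here. Sox17 itself had 4 UMIs in the untimed SOX17KO library and 7 in the untimed Control library, 20 in SOX17KO and 11 in Control at 1 week, and 3 in SOX17KO and 10 in Control at 2 weeks. Those counts, from sorted CD45-positive cells, are too few to check the genotype labels. The deposited matrices held 18281322 to 52150180 UMIs per library, and 4 to 13 barcodes were shared by any pair of libraries, none of them a pDC in both. Nothing in the labels says that the pairs come from separate animals, so p-values below concern these libraries and not a spread between animals. With 1 library per genotype and collection there is no replicate check within a collection, and every interval for 1 library or 1 pair is a 95% interval that covers counting error only. A lower share of pDCs in sorted cells cannot be told apart from a higher number of other cells.

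The gate genes differ in how much of the pDC population they reach. Siglech, an immunoglobulin-type lectin of mouse pDCs that restrains their interferon release, was present in all 307 members by the rule. Ccr9, the receptor for the gut chemokine CCL25, had a UMI in 93.8% of members. Cox6a2, a subunit of mitochondrial cytochrome c oxidase, had a UMI in 71.7%. Klk1, a secreted kallikrein protease, had a UMI in 43.3%. All 4 gate genes were found in 122 members, 3 of them in 104, 2 in 67 and Siglech alone in 14. The summed gate count ranged from 3 to 95 UMIs with a median of 30, so most members lay far above the threshold. Just inside it, 14 cells had exactly 3 UMIs, with a median of 4 of 8 other pDC genes detected (Tcf4, Bst2, Irf8, Ly6d, Runx2, Spib, Cd209d and Pacsin1). Just outside, 17 cells with a Siglech UMI had 2 UMIs in all, with a median of 3 of the 8 genes.

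Siglech (chr7:55768178-55778925, plus strand, mm10), Klk1 (chr7:44225360-44229618, plus strand), Cox6a2 (chr7:128205435-128206387, minus strand) and Ccr9 (chr9:123678439-123784330, plus strand) are protein-coding genes. The 250 bases before the start that RefSeq gives for 3 of them (build GRCm38.p6) are shown because these genes define the cells and because TCF4 belongs to a family of factors that bind E-boxes. Capitals mark each match to the E-box CANNTG, which reads the same on both strands. The Siglech stretch is chr7:55767934-55768183, the Ccr9 stretch chr9:123766961-123767210 and the Klk1 stretch chr7:44225110-44225359, all on the plus strand.
Siglech: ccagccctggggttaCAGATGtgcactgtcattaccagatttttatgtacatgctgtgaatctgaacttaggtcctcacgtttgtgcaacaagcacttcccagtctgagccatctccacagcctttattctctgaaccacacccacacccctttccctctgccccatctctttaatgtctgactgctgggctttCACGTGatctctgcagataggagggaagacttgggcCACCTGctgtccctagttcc
Ccr9: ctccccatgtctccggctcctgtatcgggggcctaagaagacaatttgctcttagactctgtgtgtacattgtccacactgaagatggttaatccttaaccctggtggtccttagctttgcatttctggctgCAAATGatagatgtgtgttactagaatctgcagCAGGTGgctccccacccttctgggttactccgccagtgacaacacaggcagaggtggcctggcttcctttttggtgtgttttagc
Klk1: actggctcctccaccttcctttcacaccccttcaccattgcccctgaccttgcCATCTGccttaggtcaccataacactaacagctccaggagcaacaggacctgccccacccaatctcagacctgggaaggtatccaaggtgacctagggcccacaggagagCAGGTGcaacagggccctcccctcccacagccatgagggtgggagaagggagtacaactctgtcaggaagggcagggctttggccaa
Siglech holds 3 matches and Ccr9 and Klk1 hold 2 each. Of 27025 mouse promoters of this length, 66.0% hold at least 1 match, 31.7% at least 2 and 12.1% at least 3, so the motif is frequent. A match describes these letters and not binding.

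Genes the gate did not use were checked next, to see whether the label holds. Of the 307 members, 306 had at least 2 of the 8 other pDC genes and 271 at least 5, with a median of 7. Tcf4, the lineage factor, had a UMI in 99% of pDCs, 50.8% of type 1 conventional dendritic cells (cDC1s, gated on Xcr1 and Clec9a), 68.2% of type 2 conventional dendritic cells (cDC2s, gated on Cd209a, Clec10a and Mgl2), 62.1% of B cells (gated on Ms4a1, Cd79a and Cd79b) and 20.9% of T cells. The cDC1, cDC2 and B cell gates also required no UMI of Siglech, C1qa, C1qb or C1qc and fewer than 2 UMIs of Cd3d and Cd3e. Ly6d, a surface protein of lymphoid progenitors and B cells, had a UMI in 65.8% of pDCs, 0.269% of cDC1s, 0.164% of cDC2s and 83.7% of B cells. Blnk, an adaptor of B cell receptor signalling, had a UMI in 89.6% of pDCs, 2.69% of cDC1s, 7.86% of cDC2s and 72.9% of B cells. Cd209d, a C-type lectin, had a UMI in 38.4% of pDCs and 43.7% of cDC2s, and so did not mark pDCs alone. Irf8, a factor needed by pDCs and cDC1s, had a UMI in 93.2% of pDCs and 93.8% of cDC1s but in 39.9% of cDC2s. The number of the 8 genes per cell was not counted in the other classes. Bst2 was common there, with a UMI in 75.5% of cDC1s and 78.4% of cDC2s, while Spib was not (1.61% and 7.53%). That count alone therefore does not set pDCs apart. The listed pDC genes were chosen with earlier results of these data known, so they are not a separate check. With that limit, by the shares of Tcf4, Ly6d and Blnk against conventional dendritic cells, the label holds for the pooled members. Nearly all of these members come from the other 5 libraries than untimed SOX17KO.

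**Figure D1:**
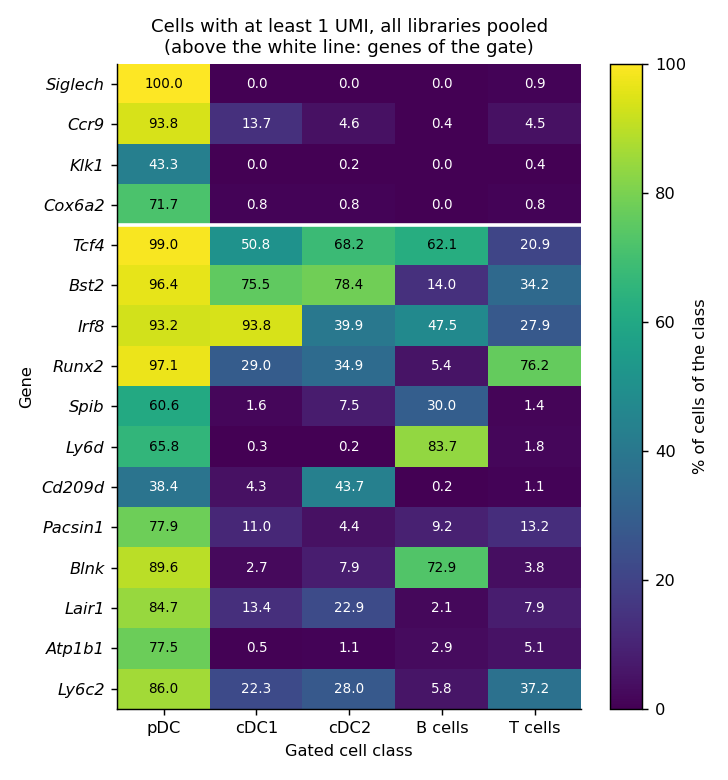
Share of cells with at least 1 UMI of each gene (rows) in pDCs and in gated cDC1s, cDC2s, B cells and T cells (columns), in percent, over all 6 libraries. Tcf4 was found in 99% of pDCs and Ly6d in 65.8% of pDCs and 83.7% of B cells, and the 4 genes above the white line were used by the gate. The cDC1, cDC2 and B cell gates required no UMI of Siglech, so its 0% in those columns was set by the rule.

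Markers of other cells were low for some lists and not for others in the 5 libraries beside untimed SOX17KO. The summed level of the 5 T cell markers was 0 to 66.8 CPM (UMIs of the genes per 1e+06 UMIs of the cells) and that of the 6 macrophage markers 0 to 7.82 CPM. The gate itself removes cells with C1q, with Ms4a1 or with more than 1 UMI of Cd3d and Cd3e, so these genes are low by the rule. The 5 B cell markers summed to 9.84 to 70.4 CPM, with Cd79a at 0 in each of these 5 libraries. Neutrophil markers summed to 0 to 55.1 CPM. The 5 monocyte markers summed to 1236 to 1923 CPM in pDCs and to 1053 to 5121 CPM over all cells of the 6 libraries, and this list holds Ly6c2, which is also a listed pDC gene (1301 ± 346 CPM in pDCs, SD, n = 5 libraries). The 5 cDC2 markers summed to 602 to 1166 CPM in pDCs and to 92.8 to 635 CPM over all cells. The 6 cDC1 markers summed to 258 to 430 CPM in pDCs and to 178 to 871 CPM over all cells, with Xcr1 at 0 in the pDCs of each library. Fibroblast markers summed to 0 to 9.84 CPM in 4 libraries and to 1978 CPM in the 1-week Control library, where 1 member held 253 of those UMIs. In the untimed SOX17KO library, with 4 members, fibroblast markers summed to 1335 CPM, plasma cell markers to 994 CPM and T cell markers to 466 CPM. There 1 member held all 43 of the fibroblast marker UMIs. Over all cells of that library these lists summed to 574 CPM, 17628 CPM and 1730 CPM.

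The near absence of pDCs in the untimed SOX17KO library held under this gate. There were 4 pDCs among 6382 cells of the untimed SOX17KO library (0.0627%, exact Clopper-Pearson interval 0.0171% to 0.160%) and 185 among 6883 cells of the untimed Control library (2.69%, 2.32% to 3.10%). In the 1-week pair they were 25 of 7309 SOX17KO cells (0.342%, 0.221% to 0.505%) and 18 of 5492 Control cells (0.328%, 0.194% to 0.517%). In the 2-week pair they were 21 of 3013 SOX17KO cells (0.697%, 0.432% to 1.06%) and 54 of 4783 Control cells (1.13%, 0.849% to 1.47%). The untimed Control library thus held 185 of all 307 members and the largest share, while the untimed SOX17KO library held the smallest.

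**Figure D2:**
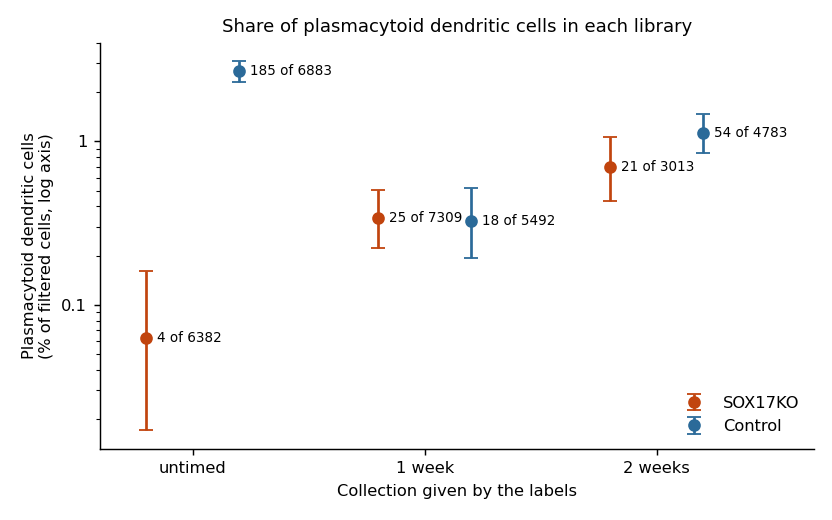
Share of pDCs among filtered cells (percent, log axis) in each library, SOX17KO left of Control at each collection, with exact 95% binomial intervals as bars and the counts beside each point. The untimed SOX17KO point (0.0627%) lies far below its Control (2.69%), while the intervals of the 1-week pair (0.342% in SOX17KO and 0.328% in Control) overlap.

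The genotype difference was not of like size in the 3 pairs. As log2 odds, SOX17KO minus Control, it was -5.29 (interval -7.35 to -4.08) in the untimed pair, 0.05 (-0.87 to 1.02) at 1 week and -0.68 (-1.51 to 0.05) at 2 weeks. The mean over the 3 pairs was -1.98 (SD 2.90, n = 3 pairs). An exact permutation test by sign flips gave a two-sided p of 0.5, and 3 pairs cannot give less than 0.25. Without the untimed pair the mean was -0.32. In terms of these libraries, the share was 42.9 times as high in the untimed Control library as in the untimed SOX17KO library, and this contrast rests on 1 pair.

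Other ways to draw the gate left the untimed contrast in place. A summed count of at least 2 took 4 SOX17KO and 197 Control cells of the untimed pair, and a summed count of at least 5 took 3 SOX17KO and 173 Control cells. Siglech of at least 2 UMIs, with no call on the other 3 genes, took 4 SOX17KO and 181 Control cells. The gate without Siglech took 7 SOX17KO and 208 Control cells, and the gate without any exclusion took 6 SOX17KO and 253 Control cells. When each cell was thinned to 1000 UMIs, to remove differences in depth, 1 of 6030 SOX17KO cells and 135 of 6029 Control cells passed. Among cells that were not T cells the share was 0.142% in SOX17KO and 5.79% in Control. Among gated dendritic cells it was 5.63% (4 of 71) in SOX17KO and 51.1% (185 of 362) in Control. The exclusions removed few cells of the untimed SOX17KO library with a passing summed count (2 for Cd3 and 1 for C1q) and more of the untimed Control library (67 for Cd3, with a median of 21493 UMIs, and 7 for C1q, with a median of 35865 UMIs). These medians lay above that of the pDCs in the same library (7174 UMIs), and whether the removed cells were doublets was not tested.

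The other dendritic cells of the untimed pair differed less. The cDC1s were 44 cells (0.689%, 0.501% to 0.924%) in SOX17KO and 62 (0.901%, 0.691% to 1.15%) in Control, with overlapping intervals. The cDC2s were 23 cells (0.360%, 0.229% to 0.540%) in SOX17KO and 115 (1.67%, 1.38% to 2.00%) in Control, and so were also fewer. T cells were 55.8% of SOX17KO and 53.6% of Control cells of that pair. Siglech in T cells, which should lack it, also differed within the untimed pair. There were 3 of 3564 T cells (0.0842%, median 3752 UMIs per cell) with a Siglech UMI in the untimed SOX17KO library and 86 of 3686 (2.33%, median 5620.5 UMIs) in the untimed Control library. Of those 86, 63 had at least 3 Siglech UMIs, and the part of free RNA or of doublets in them was not tested. In the other libraries the share of T cells with a Siglech UMI was 0% to 0.340%.

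The 4 pDCs of the untimed SOX17KO library were unlike each other. Member 3 (7289 UMIs) had 13 UMIs of Siglech, 11 of Ccr9, 3 of Klk1 and 5 of Cox6a2, 22 of Tcf4, 50 of Irf8 and all 8 of the other pDC genes. Member 4 (4614 UMIs) had 2 UMIs of Siglech, 3 of Ccr9, 2 of Tcf4 and 1 of Irf8. Member 1 (12549 UMIs) and member 2 (7748 UMIs) had 4 and 5 UMIs of Siglech, no UMI of the other gate genes and none of Irf8. Member 1 also had 19 UMIs of Igkc, the immunoglobulin kappa constant region, and member 2 had 51 of Tcf4. None of the 4 had a UMI of Ly6c2, which was found in 84.9% of the pDCs of the untimed Control library. By these genes 1 of the 4 showed all gate genes and all 8 others.

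The pDCs that were found had like depth in the libraries. Their median was 7518.5 UMIs in untimed SOX17KO and 7174 in untimed Control, 7249 in SOX17KO and 6901.5 in Control at 1 week, and 8542 in SOX17KO and 6961 in Control at 2 weeks. Siglech was at 745 CPM in untimed SOX17KO and 2427 CPM in untimed Control, 1146 in SOX17KO and 1462 in Control at 1 week, and 2322 in SOX17KO and 2112 in Control at 2 weeks. The 1-week libraries were low for both genotypes, and at 2 weeks the genotypes were close. Tcf4 was at 2484 CPM in untimed SOX17KO and 4031 CPM in untimed Control, 4349 and 3510 in the SOX17KO and Control libraries at 1 week, and 4266 and 4924 in the SOX17KO and Control libraries at 2 weeks. Outside the 4 cells of untimed SOX17KO, Tcf4 thus stayed between 3510 and 4924 CPM.

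To see what sets pDCs apart, counts were summed per library and class and pDCs were compared with cDC1s, cDC2s and B cells of the same libraries (edgeR quasi-likelihood test with library as a block, calls at a Benjamini-Hochberg adjusted p under 0.05). The 5 libraries with at least 10 pDCs entered, which leaves out the untimed SOX17KO library. In each comparison, genes that the gates of the compared classes used were left out of the calls. Against cDC1s, 1785 of 8580 genes (20.8%) were higher in pDCs and 1833 (21.4%) lower. Against cDC2s, 1707 of 8537 (20.0%) were higher and 1933 (22.6%) lower, and against B cells 1169 of 5042 (23.2%) were higher and 994 (19.7%) lower. The median log2 fold change over all tested genes was 0.0035 against cDC1s, -0.01 against cDC2s and -0.03 against B cells. Differences given below as a value ± SE are log2 fold changes of this fit, pDCs over the other class. These shares are the background against which the counts of each gene list below should be read.

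Of the 22 listed pDC genes outside the gate, all 22 were higher in pDCs than in cDC1s, 21 were higher than in cDC2s and 21 higher than in B cells. Their median log2 fold changes were 4.73, 3.78 and 4.97. The list was drawn up with earlier results of these data known, so its counts are not separate support for the label. Tcf4 averaged 4216 ± 513 CPM in pDCs and 196 ± 78.0 CPM in cDC1s (SD, n = 5 libraries), a log2 fold change of 4.40 ± 0.21 (SE) with an edgeR adjusted p of 1.47e-09. Against cDC2s it was higher by 3.0 ± 0.11 and against B cells by 3.23 ± 0.15. In none of the 3 comparisons did the libraries overlap. Bst2, the interferon-inducible antigen tetherin (PDCA-1) used to stain mouse pDCs, averaged 2146 ± 555 CPM in pDCs, 209 ± 61.8 in cDC1s, 289 ± 67.2 in cDC2s and 73.4 ± 45.3 in B cells. Irf8 averaged 2439 ± 290 CPM in pDCs and 1386 ± 150 in cDC1s, a small difference of 0.72 ± 0.10 with libraries that did not overlap (edgeR adjusted p 5.20e-05). Against cDC2s, at 139 ± 57.1 CPM, the difference in Irf8 was 4.01 ± 0.24.

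The 2 listed genes that were not called show where the classes meet. Cd209d averaged 299 ± 129 CPM in pDCs and 278 ± 72.4 CPM in cDC2s, a log2 fold change of -0.13 ± 0.18 (edgeR adjusted p 0.600). Ly6d averaged 1099.5 ± 279 CPM in pDCs and 894 ± 258 CPM in B cells, a difference of 0.28 ± 0.19 (edgeR adjusted p 0.25). The libraries overlapped in both cases. Against the conventional dendritic cells Ly6d had one of the largest differences of all genes, 10.57 ± 0.32 against cDC1s and 10.55 ± 0.33 against cDC2s, since cDC1s held 2 and cDC2s 3 of its UMIs in these libraries. Spib, an ETS factor of pDCs and B cells, was 6.75 ± 0.33 above cDC1s but 0.86 ± 0.31 above B cells, and Blnk was 6.44 ± 0.29 above cDC1s but 1.30 ± 0.21 above B cells.

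**Figure D3:**
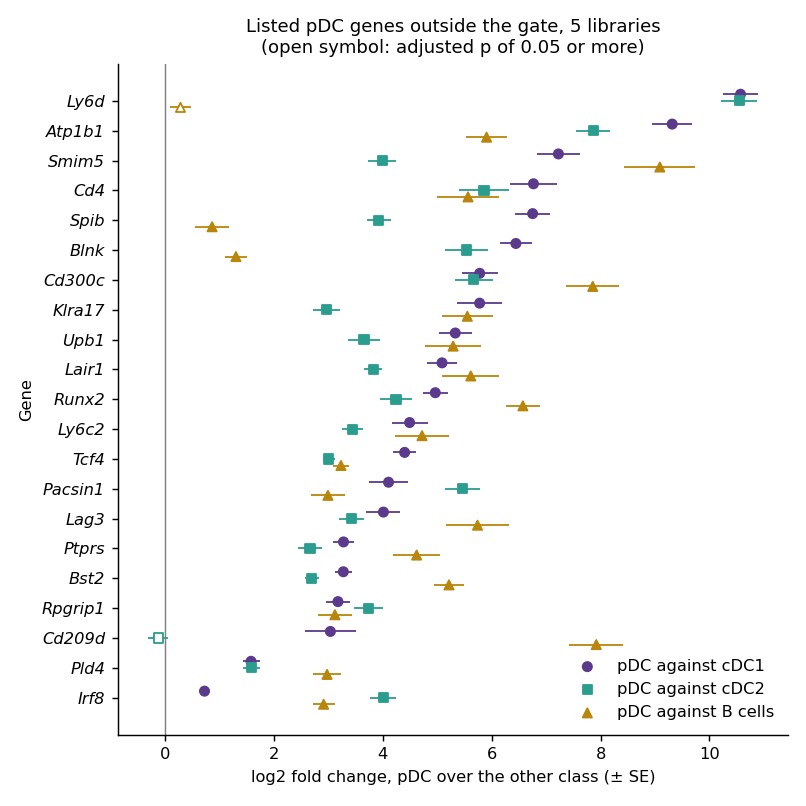
Log2 fold change (± SE) of 21 of the 22 listed pDC genes outside the gate in pDCs over cDC1s (circles), cDC2s (squares) and B cells (triangles), from 5 libraries, with open symbols for an adjusted p of 0.05 or more. All points but Cd209d against cDC2s (-0.13) and Ly6d against B cells (0.28) are called, and Irf8 lies low against cDC1s (0.72).

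Several genes with the largest differences over the whole genome had no UMI in another class. Dntt (chr19:41029275-41059525, plus strand), the terminal transferase that adds bases to antigen receptor joints, averaged 284 ± 188 CPM in pDCs and had no UMI in the cDC1s, cDC2s or B cells of the 5 libraries. Against a floor of 3 UMIs over the group, it was at least 484-fold higher than in cDC1s, at least 672-fold higher than in cDC2s and at least 174-fold higher than in B cells. Iglc3, an immunoglobulin lambda constant gene, averaged 321 ± 118 CPM in pDCs. It was at least 490-fold higher than in cDC1s and at least 680-fold higher than in cDC2s, though its reads may be shared with the near-identical Iglc2. Sh3bgr, an SH3-binding glutamate-rich protein, was at least 173-fold higher than in cDC1s and at least 240-fold higher than in cDC2s. Further genes without a UMI in cDC1s were Tmem163, a zinc transporter (at least 326-fold), Cmah, which hydroxylates sialic acid (at least 298-fold), and Gm34680 (at least 128-fold). Atp1b1, a subunit of the sodium pump, was higher than in cDC1s by 9.32 ± 0.36, with 484 ± 106 CPM in pDCs and 0.498 ± 1.11 in cDC1s.

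Against cDC2s the leading genes also held Chdh, a choline dehydrogenase (at least 129-fold), Gm30211 (at least 116-fold), Mctp2 (higher by 7.98 ± 0.17) and Klk1b27. Klk1b27 (at least 186-fold) is a close relative of the gate gene Klk1, and reads of the pair may have been split. Against B cells they held Gm21762 (at least 257-fold), Cyp7b1, an oxysterol hydroxylase (at least 103-fold), Smim5 (at least 95.3-fold), Paqr5, a progestin receptor (at least 85.9-fold), Lefty1, a TGF-beta family inhibitor (at least 74.1-fold), Sh3bp4 (at least 72.3-fold) and Ptprf, a receptor phosphatase (at least 58.7-fold), none with a UMI in the gated B cells. In the other direction, Ebf1 and Pax5, the factors that commit cells to the B lineage, were lower in pDCs, with log2 fold changes of -11.69 ± 0.31 and -9.87 ± 0.40. Pou2af1, a B cell coactivator, and Scd1, a fatty acid desaturase, had no UMI in these pDCs and were at least 208-fold and at least 328-fold lower. In the pDCs, Ebf1 averaged 0.334 CPM and Pax5 0.167 CPM, against 4095 CPM and 734 CPM in B cells. The lymphoid genes shared with B cells thus did not include these commitment factors.

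Listed transcription factors were called in both directions. Of the listed transcription factors 21 were tested against cDC1s, with 12 higher and 5 lower, and 21 against cDC2s, with 11 higher and 6 lower. Of 20 tested against B cells, 11 were higher and 3 lower. Over all genes, 20.8% were higher and 21.4% lower against cDC1s, 20.0% and 22.6% against cDC2s, and 23.2% and 19.7% against B cells. The higher calls of the list lay above these shares, while its lower calls lay near them. Runx2, a factor for the exit of pDCs from bone marrow, was higher than in cDC1s by 4.96 ± 0.23, with 1839 ± 644 CPM in pDCs and 53.0 ± 17.5 in cDC1s. Id2, the inhibitor of TCF4, averaged 16.0 ± 7.83 CPM in pDCs and 1052 ± 158 CPM in cDC1s, a log2 fold change of -5.90 ± 0.23 (edgeR adjusted p 2.17e-10). Batf3, a factor of cDC1s, was lower than in cDC1s (log2 fold change -5.83 ± 0.45) and lower than in cDC2s (log2 fold change -4.09 ± 0.45). Ikzf3, an Ikaros-family factor of mature lymphocytes, was lower than in B cells (log2 fold change -5.60 ± 0.37), and Flt3, the growth factor receptor of dendritic cells, was higher than in B cells by 3.88 ± 0.34.

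Nucleic acid sensing, the trait pDCs are known for, was uneven across the list. Of 18 tested sensing genes, 6 were higher and 4 lower than in cDC1s, and 6 were higher and 6 lower than in cDC2s, shares of higher calls above the 20.8% and 20.0% over all genes but from few genes. Of 14 tested against B cells, 8 were higher and 2 lower. Tlr7, the endosomal receptor for single-stranded RNA, was at 31.1 CPM in untimed SOX17KO and 181 in untimed Control, 118 in SOX17KO and 180 in Control at 1 week, and 179 in SOX17KO and 176 in Control at 2 weeks. Its mean was 167 ± 27.3 CPM in pDCs and 1.00 ± 1.63 CPM in cDC1s, higher by 7.02 ± 0.41 (edgeR adjusted p 5.67e-09), and no cDC1 library reached the lowest pDC library. Tlr9, the receptor for CpG DNA, was seldom captured, with a UMI in 8 of 307 pDCs, and was not tested. Tlr3, the receptor for double-stranded RNA, had no UMI in the pDCs and averaged 143 ± 56.7 CPM in cDC1s, so it was at least 99-fold lower. Pacsin1, an adaptor needed for TLR responses of pDCs, was higher than in cDC1s by 4.10 ± 0.35 and than in cDC2s by 5.46 ± 0.32, and Pld4, an endosomal nuclease, was higher than in cDC1s by 1.58 ± 0.16 and than in B cells by 2.97 ± 0.25. Irf5, a factor downstream of TLRs, was lower than in cDC1s (log2 fold change -2.0 ± 0.19).

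Interferon transcripts were nearly absent from the counts. No UMI of any listed Ifna gene, Ifnab, Ifnb1 or Ifne was found in the 307 pDCs, so none of the 19 interferon genes was tested. For a gene without a UMI, 0 of 307 pDCs allows a share of up to 0.977% of cells with a UMI. Ifnk had 3 UMIs in 2 pDCs of the untimed Control library and 1 UMI in the 2-week SOX17KO library. Ifnl3 had 1 UMI in the 2-week Control library. Ifnl2, a type III interferon (chr7:28508836-28510455, minus strand), had 10 UMIs in 1 pDC of the 1-week Control library, and its reads may be shared with Ifnl3. The depth behind these counts was a median of 6901.5 to 8542 UMIs per pDC.

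Genes that respond to interferon were more often lower than higher in pDCs when set against conventional dendritic cells. Of 32 tested, 8 were higher and 14 lower than in cDC1s, and of 33 tested 4 were higher and 23 lower than in cDC2s. Rtp4 was lower than in cDC2s (log2 fold change -5.71 ± 0.46), with 0.650 ± 1.05 CPM in pDCs and 55.1 ± 17.8 in cDC2s, and Oas3, an RNA-sensing synthetase, was lower (log2 fold change -4.59 ± 0.52). Ifi44 was the exception among the largest changes, with 40.0 ± 21.3 CPM in pDCs and 8.23 ± 4.80 in cDC1s, a difference of 2.17 ± 0.39 with libraries that overlapped. Against B cells, 8 of 23 were higher and 4 lower. Isg15, a ubiquitin-like protein of this response, was at 0 CPM in untimed SOX17KO and 70.9 in untimed Control, 83.6 in SOX17KO and 125 in Control at 1 week, and 10.5 in SOX17KO and 9.65 in Control at 2 weeks. It was thus higher at 1 week than at 2 weeks in both genotypes. In Control it was highest at 1 week. The untimed SOX17KO value rests on 4 pDCs, with a Poisson interval of 0 to 115 CPM, so it cannot be ranked.

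Genes of antigen presentation were lower in pDCs than in conventional dendritic cells throughout. All 17 listed genes of MHC class II and costimulation were lower in pDCs than in cDC1s and all 17 lower than in cDC2s, with median log2 fold changes of -2.44 and -2.61. Against B cells 15 were lower, 1 (H2-DMb1, a subunit of the peptide exchange factor) was higher and 1 was not called. H2-Eb1, a class II beta chain, averaged 550 ± 337 CPM in pDCs and 4631 ± 337 CPM in cDC1s, a log2 fold change of -3.31 ± 0.27 (edgeR adjusted p 1.35e-07). It was detected at 141 to 1019 CPM in the 5 pDC libraries, low but not absent. Cd80, a costimulatory ligand of CD28, was lower than in cDC2s (log2 fold change -5.21 ± 0.29), and so was Cd86, the other CD28 ligand (log2 fold change -3.89 ± 0.27). H2-Ob, a subunit of the inhibitor of peptide exchange, was lower than in B cells (log2 fold change -4.98 ± 0.35).

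Against conventional dendritic cells, homing receptors, cytokines and the secretory pathway each had members on both sides. S1pr4, a sphingosine phosphate receptor, was higher in pDCs than in cDC1s by 4.59 ± 0.50. Itgae, the integrin chain CD103 of intestinal cDC1s, was lower (log2 fold change -5.59 ± 0.32). Ccr7, the receptor for migration to lymph nodes, was lower than in B cells (log2 fold change -4.59 ± 0.37) and lower than in cDC2s (log2 fold change -2.76 ± 0.41), and Selplg, the ligand of P-selectin, was higher than in B cells by 4.28 ± 0.24. In all, 4 homing genes were higher and 4 lower of 14 tested against cDC1s, 6 and 5 of 13 against cDC2s, and 4 and 5 of 10 against B cells. Over all genes, 20.8% were higher and 21.4% lower against cDC1s and 20.0% and 22.6% against cDC2s. Against B cells these shares were 23.2% and 19.7%. The homing list is short, so its counts are not read as a trait of the list.

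Of 13 cytokine and effector genes tested against cDC1s, 4 were higher and 8 lower. Il12a, the p35 subunit of IL-12, averaged 43.8 ± 18.0 CPM in pDCs and 0.898 ± 1.24 in cDC1s, higher by 5.15 ± 0.52, whereas Il12b, the p40 subunit, had no UMI in these pDCs and was at least 21.8-fold lower than in cDC1s. Ccl22, a chemokine of mature dendritic cells, was at least 21.1-fold lower, and Ccl17, its relative, was lower (log2 fold change -7.34 ± 0.55). Against cDC2s, 2 of 13 were higher and 5 lower, with Cxcl10, an interferon-induced chemokine, lower (log2 fold change -6.16 ± 0.34). Ccl4, a chemokine that attracts lymphocytes and monocytes, was at 2913 ± 1274 CPM in pDCs and 87.1 ± 95 CPM in B cells, a difference of 5.17 ± 0.39. Of 5 genes tested against B cells, 2 were higher (Ccl4 and Ccl3) and 0 lower, with 0 lower also at an unadjusted p under 0.05, in DESeq2 and in limma-voom.

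In the secretory list, 9 of 22 genes were higher and 4 lower than in cDC1s, 6 higher and 3 lower than in cDC2s, and 17 higher and 1 lower than in B cells, against 23.2% and 19.7% of all genes in the last comparison. Xbp1, the factor that expands the endoplasmic reticulum, was higher than in B cells by 2.56 ± 0.32, and Sec61b, a subunit of the translocon, by 2.06 ± 0.21. Mzb1, a chaperone of antibody-secreting cells, averaged 126 ± 73.2 CPM in pDCs and 0.249 ± 0.557 in cDC1s, higher by 8.03 ± 0.43, and was the 1 gene lower than in B cells, a call that DESeq2 did not make.

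Proliferation genes were low in pDCs. All 12 proliferation genes were lower than in cDC1s and all 9 tested were lower than in cDC2s, while 2 of 4 tested were lower than in B cells. Mki67, a nuclear protein of cycling cells, was lower than in cDC1s (log2 fold change -6.04 ± 0.38), with 1.95 ± 3.15 CPM in pDCs and 178 ± 26.8 in cDC1s, and 16 of 307 pDCs had a UMI of Mki67 or Top2a. Of the immediate early and stress genes, which tissue digestion can raise, 1 of 16 was higher and 10 lower than in cDC1s, and 0 of 16 higher and 13 lower than in cDC2s. For the count of 0, 1 gene was higher at an unadjusted edgeR p under 0.05, and DESeq2 called 0 and limma-voom 1. Genes of transitional dendritic cells, a type between pDCs and cDC2s, were split by comparison. Axl was found in 2 of 307 pDCs, and Crip1 was lower than in cDC1s (log2 fold change -2.80 ± 0.18). Cd8a, which marks some mouse pDCs, was higher than in cDC1s by 3.19 ± 0.24, and Zbtb46, a factor of conventional dendritic cells, had a UMI in 35 pDCs. Of that list, 3 of 11 were higher and 4 lower than in cDC1s, 2 of 12 higher and 7 lower than in cDC2s, and 6 of 9 higher and 0 lower than in B cells. For that 0, 1 gene was lower at an unadjusted edgeR p under 0.05, and DESeq2 called 0 and limma-voom 1.

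**Figure D4:**
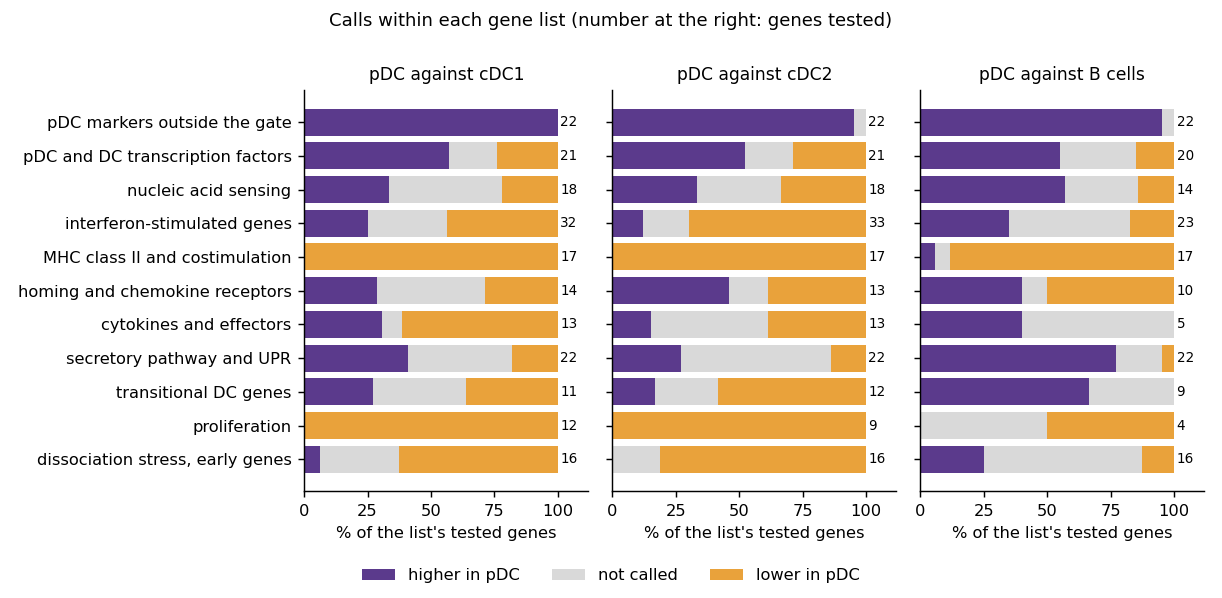
Percent of the tested genes of each list that were higher in pDCs, not called or lower in pDCs, against cDC1s, cDC2s and B cells, with the number tested at the right of each bar. All 17 MHC class II and costimulation genes were lower than in both kinds of conventional dendritic cell, and 17 of 22 secretory genes were higher than in B cells.

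The last question was whether the pDCs of SOX17KO tumours differ in expression from those of Control tumours. In the 1-week and 2-week pairs, edgeR in the reported setting called chemokine genes Ccl4 and Ccl3 and the cytokine gene Il1b higher in SOX17KO pDCs. H2-Aa and Cd83 of antigen presentation were also called higher, in 3 and 2 of 9 settings. The listed pDC identity genes were not called, but over all genes only 0.808% were called higher and 0.234% lower. An absence of calls in that list is thus near the share over all genes. In the untimed pair, with 4 SOX17KO pDCs and outside the test, Ccl4, Ccl3 and Il1b ran the other way. The test used the 4 libraries of the 1-week and 2-week pairs with collection as a block. That leaves 1 residual degree of freedom, so the spread used for a gene is largely taken from other genes. A small p-value between genotypes therefore does not rest on a spread measured between replicates of that gene. Of 3839 genes, 31 (0.808%) were higher in SOX17KO and 9 (0.234%) lower, and 348 had an unadjusted p under 0.05. The count fell to 3 higher and 0 lower with DESeq2 (56 at an unadjusted p under 0.05) and to 2 and 0 without the collection block (111). It fell to 0 and 0 with edgeR when the 7 members with under 5 of the 8 other pDC genes were left out (199 at an unadjusted p under 0.05, smallest adjusted p 0.523). Those 7 are 4 SOX17KO and 3 Control pDCs. The 1-week Control pDCs also hold the member with 253 fibroblast marker UMIs. Leaving out members with at least 2 UMIs of other cell types' markers gave 7 higher and 3 lower, and limma-voom gave 5 and 2. These alternatives were chosen after the data were seen. The direction of all 40 genes was the same in every setting that gave a value. These settings used largely the same counts that picked the genes, so this agreement is not separate support.

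Ccl4 (chr11:83662584-83664683, plus strand) had 935 UMIs (4599.8 CPM, Poisson interval 4309.7 to 4904) in SOX17KO and 212 (1657 CPM, 1442 to 1896) in Control at 1 week, and 683 (3588 CPM) in SOX17KO and 685 (1653 CPM) in Control at 2 weeks. The log2 fold change was 1.27 ± 0.16 (SE) with an edgeR adjusted p of 3.02e-11. The untimed pair, which was not in the test, ran the other way, with 52 UMIs (1615 CPM, 1206 to 2118) in its 4 SOX17KO pDCs and 3676 (3068 CPM, 2969 to 3169) in Control. Within 2 pairs SOX17KO was higher, and the libraries of the genotypes did not overlap there. Over all other cells Ccl4 was at 934 CPM in SOX17KO and 1335 CPM in Control at 1 week and at 729 CPM in SOX17KO and 1112 CPM in Control at 2 weeks.

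Ccl3 (chr11:83647844-83649355, minus strand), a related chemokine, had 60 UMIs (295 CPM) in SOX17KO and 4 (31.3 CPM) in Control at 1 week, and 41 (215 CPM) in SOX17KO and 8 (19.3 CPM) in Control at 2 weeks. Its log2 fold change was 3.35 ± 0.45 with an edgeR adjusted p of 1.30e-10. In SOX17KO 1 member held 48 of the 60 UMIs at 1 week and 1 held 23 of the 41 at 2 weeks. Without them the SOX17KO levels were 61.2 and 104 CPM, and Control levels without their own top member were 8.20 and 9.91 CPM. In the untimed pair Ccl3 had 1 UMI (31.1 CPM, 0.786 to 173) in SOX17KO and 232 UMIs (194 CPM) in Control. Over all other cells Ccl3 was at 241 CPM in SOX17KO and 265 CPM in Control at 1 week and at 224 CPM in SOX17KO and 272 CPM in Control at 2 weeks, close to its level in SOX17KO pDCs.

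Il1b (chr2:129364570-129371139, minus strand), a cytokine of activated myeloid cells, had 21 UMIs (103 CPM) in SOX17KO and 1 (7.82 CPM) in Control at 1 week, and 57 (299 CPM) in SOX17KO and 1 (2.41 CPM) in Control at 2 weeks. The log2 fold change was 5.85 ± 0.62 with an edgeR adjusted p of 2.62e-17, and 4.76 with limma-voom (limma adjusted p 0.134). Il1b was called in 6 of 8 settings, Ccl4 in 7 of 9 and Ccl3 in 8 of 9, the reported setting included. Here too 1 member held 20 of the 21 UMIs and 1 held 35 of the 57, and without them the SOX17KO levels were 5.36 and 123 CPM. The 1-week SOX17KO level then lay below that of Control (7.82 CPM, from 1 UMI). The untimed pair had 0 UMIs in SOX17KO and 130 (108 CPM) in Control. Il1b was far higher outside the pDCs, at 3880 CPM in SOX17KO and 3893 CPM in Control over all other cells at 1 week, and 2474 and 1124 CPM in SOX17KO and Control at 2 weeks. The part of RNA from other cells in the Il1b difference was not tested.

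Of 4 cytokine genes tested, these 3 were higher in SOX17KO and Tgfb1 was not called, a median log2 fold change of 2.31 beside a median of -0.01 over all genes. Of 9 tested genes of MHC class II and costimulation, 2 were higher and the median was 0.79. H2-Aa, the class II alpha chain, was at 1102 CPM in SOX17KO and 407 in Control at 1 week, 2033 and 1347 in SOX17KO and Control at 2 weeks, and 3416 and 1153 in SOX17KO and Control of the untimed pair. H2-Aa was higher in SOX17KO in all 3 pairs, with a log2 fold change over the 2 tested pairs of 0.94 ± 0.22 (edgeR adjusted p 0.00377). The untimed SOX17KO level rests on 4 pDCs. Members 1 and 2, without a UMI of Ccr9, Klk1, Cox6a2 or Irf8, held 39 and 49 of its H2-Aa UMIs. Members 3 and 4 held 18 and 4. The libraries of the genotypes overlapped, since the 1-week SOX17KO level lay below the 2-week Control level. H2-Aa was called in 3 of 9 settings. It had a UMI in 76.0% of SOX17KO and 33.3% of Control pDCs at 1 week and in 95.2% of SOX17KO and 81.5% of Control pDCs at 2 weeks. Cd83, a maturation antigen of dendritic cells, was higher by 1.35 ± 0.37 (edgeR adjusted p 0.0347), a call made in 2 of 9 settings. The other 7 tested genes of this list, with Cd74 and Cd86 among them, were not called, and DESeq2 and limma-voom called 0 of the 9.

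Identity genes were not called between the genotypes. Of the 22 listed pDC genes outside the gate, 0 were called by edgeR, DESeq2 or limma-voom, beside 0.808% higher and 0.234% lower over all genes with edgeR, so a count of 0 is near that of all genes. They had 1 higher and 1 lower at an unadjusted edgeR p under 0.05 and a median log2 fold change of -0.03. Tcf4 differed by 0.03 ± 0.14 (edgeR adjusted p 0.996). Bst2 was at 1530.0 CPM in SOX17KO and 2596 in Control at 1 week and 1623 and 2228 in SOX17KO and Control at 2 weeks, a difference of -0.62 ± 0.18 that missed the threshold (edgeR adjusted p 0.0550). The Bst2 libraries of the genotypes did not overlap in these pairs, but how often this holds over all tested genes was not counted. Bst2 was called in 0 of 9 settings. Of 17 transcription factors and 13 sensing genes tested, 0 were called by any of these tools, with 1 and 3 at an unadjusted edgeR p under 0.05. Likewise 0 of 8 homing and 0 of 3 proliferation genes were called by any of them, with 1 and 0 at an unadjusted p under 0.05.

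Of 17 interferon-stimulated genes tested, Slfn5 was higher in SOX17KO by 1.95 ± 0.39 (edgeR adjusted p 0.000226) and the median was -0.05. Without members that carry other cell types' markers the Slfn5 log2 fold change was 0.69 (edgeR adjusted p 0.788), and Slfn5 was called in 4 of 9 settings. Crip1, of the transitional list, was higher by 1.30 ± 0.26 and was the 1 called of 8. Without those members it was at 0.60 (edgeR adjusted p 0.521), and it was called in 5 of 9 settings. Ier3, an early response gene, was higher by 2.53 ± 0.56 and was the 1 called of 15 stress genes, in 3 of 8 settings. Among the largest increases over all genes were also those of Tnip3, an inhibitor of NF-kappaB signalling, by 5.59 ± 0.99 (36 UMIs in SOX17KO and 1 in Control), Chl1, a cell adhesion molecule, by 2.22 ± 0.51, Wfdc17, by 2.16 ± 0.43, Gm15987, by 2.07 ± 0.42, and Tram2, by 2.06 ± 0.58. Tnip3 was called in 4 of 7 settings, Chl1 in 3 of 6, Wfdc17 in 3 of 9, Gm15987 in 4 of 9 and Tram2 in 2 of 9. With a summed gate count of at least 5 the log2 fold change of Gm15987 was 0.58 (edgeR adjusted p 0.953), and without members that carry other cell types' markers that of Wfdc17 was 1.35 (edgeR adjusted p 0.420). Of the 31 genes that were higher, 7 had at least 50% of their UMIs in 1 member of the 1-week SOX17KO library and 14 in 1 member of the 2-week SOX17KO library.

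Genes that fell in SOX17KO pDCs included Inpp4b, a lipid phosphatase (log2 fold change -2.90 ± 0.51) and Blvrb, a biliverdin reductase (log2 fold change -2.53 ± 0.51). Inpp4b and Blvrb were each called in 5 of 9 settings. Slpi, a secreted protease inhibitor (chr2:164354070-164389095, minus strand), was at 73.8 CPM in SOX17KO and 235 in Control at 1 week, 57.8 and 357 in SOX17KO and Control at 2 weeks, and 0 and 362 in SOX17KO and Control of the untimed pair. It was lower in SOX17KO in each of the 3 pairs, but the untimed SOX17KO value rests on 4 pDCs. Of these, members 1 and 2 had no UMI of Ccr9, Klk1, Cox6a2 or Irf8. The log2 fold change of Slpi was -2.18 ± 0.41 over the 2 tested pairs (edgeR adjusted p 5.20e-05), and it was called in 4 of 9 settings. Mzb1 was at 68.9 CPM in SOX17KO and 211 in Control at 1 week, 47.3 and 109 in SOX17KO and Control at 2 weeks, and 31.1 and 193 in SOX17KO and Control of the untimed pair. Its log2 fold change was -1.44 ± 0.40 (edgeR adjusted p 0.0397), and it was the 1 called of 22 secretory genes, whose median was -0.25. Mzb1 was called in 1 of 9 settings, and its untimed SOX17KO value rests on the same 4 pDCs.

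**Figure D5:**
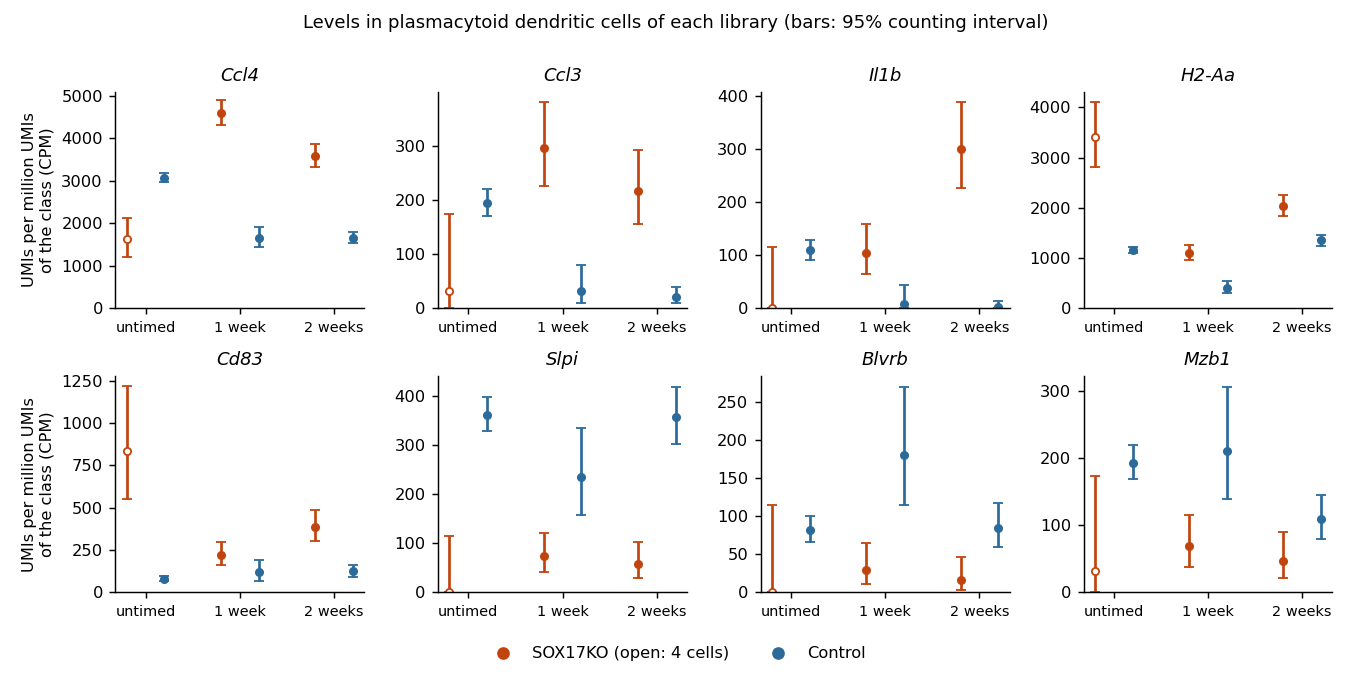
Levels of 8 genes in the pDCs of each library (CPM, linear axes), SOX17KO in orange and Control in blue, with exact Poisson 95% intervals as bars and an open symbol for the untimed SOX17KO library with its 4 pDCs. Ccl4, Ccl3 and Il1b are higher in SOX17KO at 1 week and 2 weeks only, while H2-Aa is higher and Slpi lower in SOX17KO in each pair.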

How the data were processed

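UMI counts per gene and cell barcode (32285 genes) were deposited by the authors as filtered matrices, made with Cell Ranger 6.0.1 on mm10 per the submitters' processing notes, while the file headers name Cell Ranger 7.0.1. No source used here states whether doublets were removed before deposit. Members, gene lists and gates were chosen with earlier results of these data known. Cells were gated on raw counts. Counts were summed per library and class and tested in R 4.3.3 with edgeR 4.0.16 (TMM, filterByExpr, quasi-likelihood test, Benjamini-Hochberg adjustment), with limma 3.58.1 and DESeq2 1.42.0 as alternatives. Pairs come from the collections in the labels. A library entered with at least 10 cells of each class, so untimed SOX17KO entered no fit. Doublets were scored by simulated doublets (scikit-learn 1.9.0) and left out only as an alternative. The scripts were tested on simulated data. Named genes were, per list, up to 4 called genes of largest absolute log2 fold change, all listed pDC markers, and over all genes the 8 highest and 4 lowest called ones with mean CPM of at least 50. Genes outside that rule (Isg15, Tlr9, Axl, Zbtb46, Tgfb1, Cd74 and Cd86 between genotypes) were chosen after their values were seen. A few genes that the rule for named genes or the lists hold are not reported here by name, and they stay in the counts.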

Additional observations from a re-analysis of the deposited data

Results flagged for a closer look

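The genotype difference in pDC share was large in the untimed pair, while the 1-week pair showed no clear direction. On the log2 odds scale, SOX17KO minus Control, it was -5.29 in the untimed pair and 0.05 in the 1-week pair, whose interval holds 0. With 1 library per genotype in each pair, the difference between the pairs was not tested.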

How the results depend on the processing

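The untimed contrast kept its direction under every gate, filter and denominator tried, from -6.53 on the log2 odds scale with cells thinned to 1000 UMIs to -3.97 with gated dendritic cells as the denominator. The 1-week difference changed sign among the same settings (-0.28 when thinned, 0.05 as reported). Leaving out each pair in turn put the mean between -2.99 and -0.32. Leaving out each library in turn gave 1347 to 1681 genes higher and 1506 to 1678 lower than in cDC1s, 1274 to 1677 and 1525 to 1824 against cDC2s, and 872 to 1263 and 664 to 1053 against B cells. Without the library as replicate block the class counts were 1553 and 1362, 1545 and 1401, and 822 and 696. Between genotypes, where 31 genes were higher and 9 lower, dropping the replicate block (collection) left 2 and 0, DESeq2 3 and 0, limma-voom 5 and 2, and no filter 28 and 11. A summed gate count of at least 5 left 21 and 5, removal of doublets 22 and 3, of members with other cell types' markers 7 and 3, and of members with under 5 of 8 other pDC genes 0 and 0. The cause was not tested. All of these but the gate count were chosen after the data were seen. Uncalled genes changed sign between genotypes: Tcf4 (-0.024) and Runx2 (0.0044) with limma-voom, Irf8 (0.011), Runx2 (0.10), Cd209d (-0.11), Cd300c (0.027) and Ptprs (0.022) with the stricter gate count, Runx2 (0.0073), Cd300c (0.18), Smim5 (0.14) and Ptprs (0.10) without members with other markers, and Runx2 (0.042) and Ptprs (0.028) with 5 of 8 genes. A minimum of 20 cells could not be run for the genotype and B cell comparisons, nor could the genotype fit without a collection, which leaves no spread. Depth limits genes near 1 UMI per library, and the 4 pDCs of untimed SOX17KO limit any value there.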

Other observations

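Genes called between genotypes outside the lists included Ifitm1, higher in SOX17KO pDCs by 1.60, and Ifitm2, higher by 1.42, both interferon-inducible membrane proteins. Without members that carry other cell types' markers these log2 fold changes were 0.087 for Ifitm1 (edgeR adjusted p 0.981) and 0.50 for Ifitm2 (edgeR adjusted p 0.805), and each gene was called in 3 of 9 settings. Ribosomal protein genes Rpl37a, Rpl38, Rpl41 and Rps29 were also higher, by 0.70, 0.89, 0.64 and 0.70 on the log2 scale, and were called in 3, 4, 1 and 1 of 9 settings. Plac8 had a log2 fold change of -0.70 and was called in 5 of 9 settings. These genes were chosen after their values were seen.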
